A study of Homo sapiens with 12 samples.

Results

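The intermediate filament genes were 67 of the 60623 genes in the count table. They were taken by a rule on symbols that used no measured value but was chosen with earlier results of these data known. The rule took every gene named KRT with a number and, where copies share one, a letter A, B or C, which gave 55 keratins. It added VIM, DES, GFAP, NES, SYNM, INA, NEFL, NEFM, NEFH, LMNA, LMNB1 and LMNB2. RNA was measured in 4 stable derivatives of A549 (cells of a human lung adenocarcinoma kept as a line), all infected with a lentiviral vector whose insert is driven by the EF1a promoter and all selected with hygromycin. V carried the empty vector, WT carried HA-tagged wild-type AHR, SA carried HA-AHR with S489A, which removes a serine that can be phosphorylated, and SD carried HA-AHR with S489D, which puts an acidic residue in its place. AHR is the aryl hydrocarbon receptor, a transcription factor that small molecules activate, and the cells also kept their own AHR gene. Each construct was carried by 1 line with 3 libraries, 12 in all, so that what a construct did and what else set its line apart cannot be told apart.

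Intermediate filaments are rope-like polymers that give cells and nuclei their mechanical strength. Keratins work as obligate pairs of an acidic type I and a basic type II chain, and simple epithelia, such as those of the lung, are built mainly on the pair of KRT8 (type II) with KRT18 (type I), often with KRT7 and KRT19. Vimentin, the type III filament of mesenchymal cells, is also made by many carcinoma cell lines, and its gain beside a loss of epithelial keratins is widely used as a sign of epithelial-mesenchymal transition. Lamins line the inner face of the nuclear envelope, with A-type lamins from LMNA and B-type lamins from LMNB1 and LMNB2.

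Library totals ranged from 7844045 to 11765576 expected counts. Levels are given as CPM, counts scaled to a common library size by edgeR's TMM method. A gene without a count in a library could have been present at up to 0.255 to 0.382 CPM (3 counts), for counting error only. AHR averaged 69.1 ± 4.51 CPM (mean ± SD, n = 3 libraries throughout) in V against 266 ± 28.3 in WT, 223 ± 5.89 in SA and 210.0 ± 9.14 in SD, so that each line labelled with an added AHR had more of it. A readthrough gene overlaps AHR on the same strand and can take part of its reads. The labels call the libraries of a line biological replicates and say no more of their source, so that the p-values measure the spread between these libraries. Of the cell type markers examined, 5 of 6 epithelial genes averaged above 1 CPM, against 1 of 6 of the alveolar type 2 and lung lineage, 1 of 6 of fibroblasts, 2 of 4 of neurons and glia, 1 of 4 of blood cells, and 0 of 4 and 0 of 3 of muscle and endothelial cells. In the alveolar type 2 and lung lineage list, NKX2-1 and the surfactant genes SFTPA1, SFTPB, SFTPC and SFTPD had at most 3 counts in any library, while NAPSA had 22 to 45. The blood cell gene PTPRC had at most 2 counts.

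Most of the 67 genes were silent or nearly so. No count was found in any library for 21 of them, and 27 more had at least 1 count but never over 11 in a library and did not pass the filter on low counts. The other 19 passed it in all 6 comparisons between lines, and they were 10 keratins (KRT4, KRT7, KRT8, KRT10, KRT15, KRT18, KRT80, KRT81, KRT83 and KRT86), VIM, GFAP, INA, NEFL, NES, SYNM and the 3 lamins. Of the 7 simple-epithelial keratins, 4 were among them, against 3 of 21 keratins of basal, stratified and wounded epithelia and 3 of 26 keratins of hair and its sheath. KRT5 and KRT14, the pair of basal epithelial cells, were at no more than 2 counts and at 0. KRT6A, KRT16 and KRT17, which wounded epithelia switch on, did not exceed 4 counts. KRT19, a simple-epithelial type I keratin, had 0 to 5 counts per library, and its 5 pseudogene rows had 0 counts in every library. KRT20 and KRT23 stayed at or under 4 counts. DES, the muscle filament, had no count, and neither NEFM nor NEFH exceeded 5. KRT222, a keratin-related gene whose symbol fits the rule, had at most 9.

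Levels between genes were compared as CPM per kb of the canonical transcript. KRT18 and KRT8 were highest, with means over the 12 libraries of 1574 and 1524 CPM per kb, which placed them 24th and 26th of 27775 genes with a level. KRT7 followed at 963 CPM per kb and KRT81 at 908. VIM, at 568 CPM per kb, stood 93rd. LMNA was at 199, LMNB2 at 60.1 and LMNB1 at 50.5 CPM per kb, and KRT80, KRT10, INA and SYNM lay between 17.98 and 35.01. The other 7 tested genes (KRT15, KRT4, KRT86, GFAP, NES, NEFL and KRT83) were between 0.609 and 1.93 CPM per kb.

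The keratin genes lie in 2 clusters, and expression was uneven along both. On chromosome 12 of GRCh38, 27 keratin genes occupy 784 kb (52168996 to 52952906), and 8 of them were tested. The abundant ones sit at its ends, with KRT80, KRT7 and KRT81 at one end, KRT8 and KRT18 side by side at the other, and 8 genes in a row without a count (KRT71 to KRT76 in map order) between them. On chromosome 17, 28 keratin genes occupy 970 kb (40654665 to 41624842), and KRT10 and KRT15 alone were tested. KRT18 is the only type I keratin on chromosome 12, and it made up between 97.9% and 99.0% of all type I keratin signal per kb in every library. Summed over 28 type I and 26 type II genes, V had 1957 ± 54.9 CPM per kb of type I and 3837 ± 122 of type II.

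**Figure D1:**
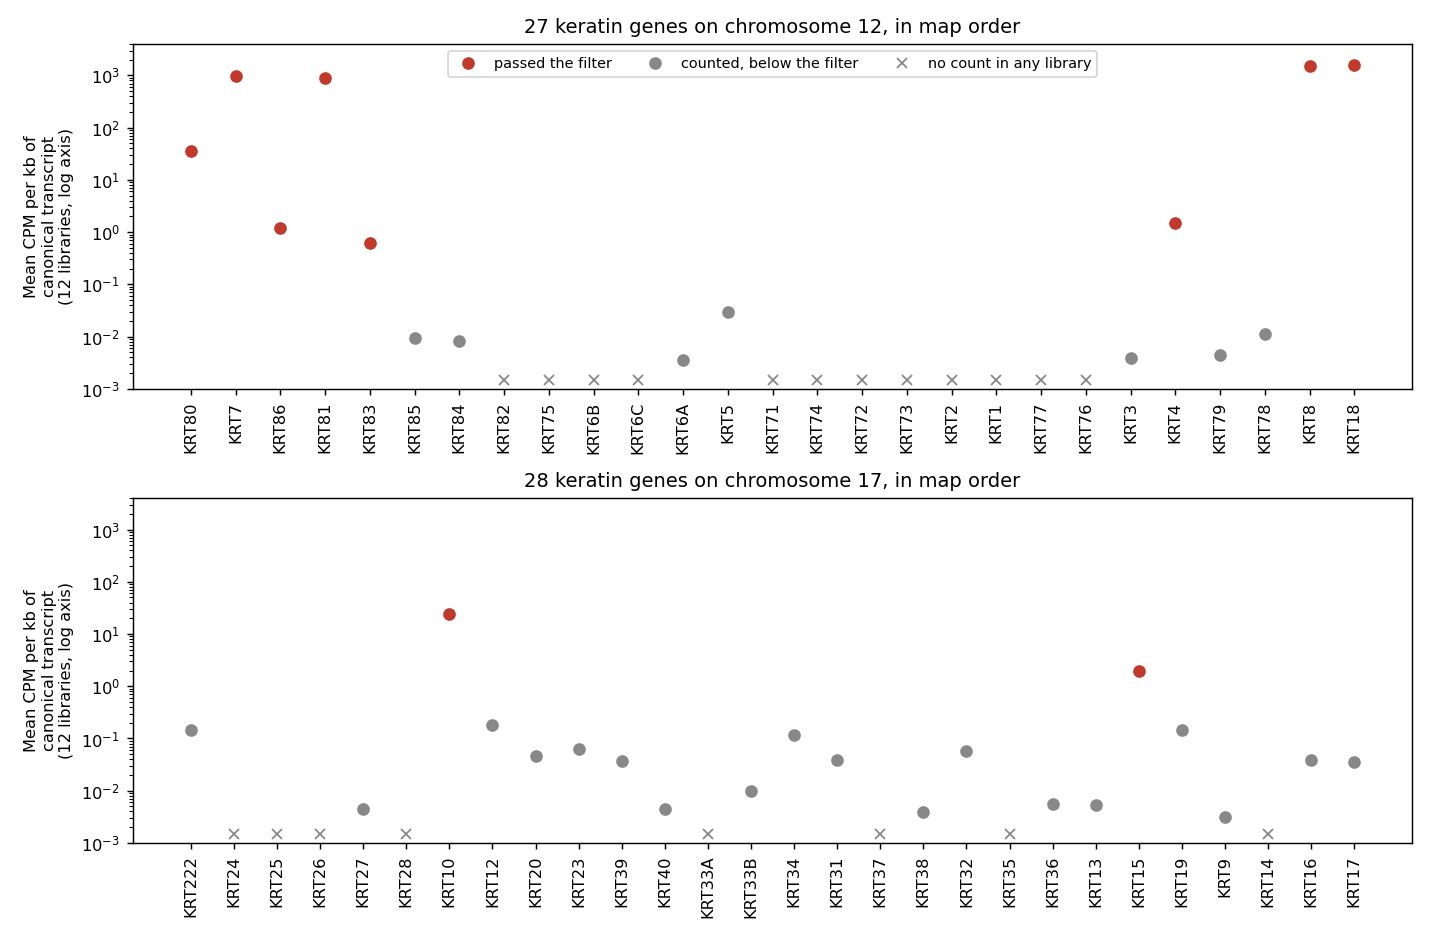
Mean level of each keratin gene over the 12 libraries (CPM per kb of canonical transcript, log axis) in map order along chromosomes 12 and 17. Red points passed the filter on low counts, grey points had a count but did not pass, and crosses had no count in any library. The highest points are KRT80, KRT7, KRT81, KRT8 and KRT18 at the ends of the chromosome 12 cluster.

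Some of these genes are hard to count. KRT81 has 44.6% of its 50-base sequences in common with other genes, and 38.4% with KRT86 alone, so that the division of reads between KRT81 and KRT86, both type II hair keratins, is uncertain. For KRT18 and KRT8 the shared part was 15.01% and 10.1%, mainly with processed pseudogenes. The 50 KRT8 pseudogene rows held 0.247% to 0.423% of the KRT8 count in a library, and the 67 KRT18 pseudogene rows 0.0156% to 0.0787% of the KRT18 count. Exons of KRT8 and KRT18 overlap by 525 bases on opposite strands, those of VIM and VIM-AS1 by 656, and those of SYNM and SYNM-AS2 by 2027. Whether the libraries keep strand is not given in the sources used here, so reads from these stretches cannot be assigned to 1 gene.

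AHR binds DNA at a core of GCGTG, and the stretches before the start of 3 genes are shown because VIM and KRT4 differed from V in every AHR line, in opposite directions, while LMNB2 is the 1 with the core among the 5 called genes whose window covers the start of the canonical transcript (KRT10, KRT4, LMNB2, SYNM and VIM). The sequences are RefSeq's on GRCh38.p14, 250 bases up to the base before the annotated start, 5′ to 3′ on the strand of the gene, with the core in capitals. They lie at chr10:17227991-17228240 on the plus strand (VIM), chr12:52814117-52814366 on the minus strand (KRT4) and chr19:2456960-2457209 on the minus strand (LMNB2).
VIM: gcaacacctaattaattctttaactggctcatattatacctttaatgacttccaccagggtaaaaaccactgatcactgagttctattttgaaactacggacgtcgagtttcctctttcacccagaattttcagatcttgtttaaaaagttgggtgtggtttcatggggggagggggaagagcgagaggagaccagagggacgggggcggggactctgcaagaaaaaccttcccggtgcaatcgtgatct
KRT4: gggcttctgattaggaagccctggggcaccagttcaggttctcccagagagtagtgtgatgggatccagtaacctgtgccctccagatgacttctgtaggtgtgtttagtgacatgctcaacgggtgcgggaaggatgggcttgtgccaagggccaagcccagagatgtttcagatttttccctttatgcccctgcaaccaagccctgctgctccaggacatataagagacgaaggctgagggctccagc
LMNB2: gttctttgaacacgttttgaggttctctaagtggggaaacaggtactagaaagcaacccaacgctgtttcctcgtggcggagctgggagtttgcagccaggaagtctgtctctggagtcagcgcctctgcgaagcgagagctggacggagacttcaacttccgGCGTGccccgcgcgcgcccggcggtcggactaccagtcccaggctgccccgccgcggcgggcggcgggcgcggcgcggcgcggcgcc

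In windows of 300 bases (250 before to 50 after a start), GCGTG on either strand was present in 36.5% of 35116 promoters. Of the 19 tested genes, 8 had a window over the start of their canonical transcript (INA, KRT10, KRT4, LMNB1, LMNB2, NES, SYNM and VIM). The core was found once each in LMNB2, 87 bases before the start, and in LMNB1, 105 bases before it. The windows of VIM, KRT4, KRT10, SYNM, INA and NES did not hold these 5 letters. LMNA, also called, had 3 windows at other annotated starts, and 1 of them (chr1:156106466-156106765) held the core 3 times. Of the 35116 promoters, 12.7% held it at least 2 times. KRT8, also called, had a window at another annotated start (chr12:52926420-52926719), without the core.

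The first question was how the lines with added AHR differed from the line with the empty vector. KRT8 and KRT18, the simple-epithelial pair, fell by 20.4% to 28.1% in the 3 AHR lines, KRT4 fell by 48.9% to 65.3%, and VIM rose by 19.6% to 28.1%, while the A-type and B-type lamins LMNA and LMNB2 rose in WT and SA. Of the 19 tested genes, 8 were called in WT against V (adjusted p under 0.05, edgeR's quasi-likelihood test with Benjamini-Hochberg adjustment over all genes tested), 8 in SA against V and 6 in SD against V. Over all genes tested, 5.24%, 7.17% and 5.41% were called in these comparisons. In WT, 4 of the genes were higher and 4 lower than in V, where 2.31% of all genes tested were called higher and 2.93% lower. In SA the numbers were again 4 and 4, against 3.88% and 3.29%, and in SD 1 was higher and 5 lower, against 2.92% and 2.49%. The 3 comparisons share the V libraries and are not independent of each other. The 19 genes had a median log2 fold change of 0.02 in WT, 0.00 in SA and 0.07 in SD, beside 0.00 over all genes tested in each.

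KRT8 carried 3243, 3330 and 3232 CPM in the 3 V libraries, 2615, 2589 and 2608 in WT, 2505, 2575 and 2620 in SA, and 2359, 2454 and 2507 in SD. Every V library lay above every library of the AHR lines. The log2 fold change against V was −0.33 in WT (SE 0.03, adjusted p = 1.21e-07), −0.35 in SA (SE 0.04, adjusted p = 2.02e-06) and −0.42 in SD (SE 0.05, adjusted p = 3.04e-06).

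KRT18 (GRCh38 chromosome 12, 52948871 to 52952906) followed KRT8 closely. It was at 2745, 2800 and 2655 CPM in V, 2102, 2124 and 2142 in WT, 2039, 2131 and 2065 in SA, and 1908, 1975 and 2004 in SD. Again the V libraries stood above all others. Log2 fold changes were −0.37 in WT (SE 0.04, adjusted p = 3.25e-08), −0.40 in SA (SE 0.04, adjusted p = 3.72e-07) and −0.48 in SD (SE 0.05, adjusted p = 4.16e-07). The ratio of KRT8 to KRT18 CPM moved little, from 1.18 to 1.22 in V and from 1.21 to 1.27 in the 9 libraries of the AHR lines.

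KRT7, another type II keratin of simple epithelia, was called in SD alone. It was at 1690, 1716 and 1572 CPM in V, 1672, 1593 and 1658 in WT, 1555, 1536 and 1587 in SA, and 1369, 1394 and 1436 in SD. The WT and SA libraries overlapped those of V, and the SD libraries lay below all others. It fell in SD against V by 0.24 on the log2 scale (SE 0.05, adjusted p = 0.00414). Without V replicate 1 or V replicate 2 the adjusted p of that call was 0.0507 and 0.0590. The ratio of KRT7 to KRT8 was 0.508 ± 0.0187 in V, against 0.630 ± 0.0131 in WT, 0.608 ± 0.0123 in SA and 0.574 ± 0.00625 in SD, with no V library above 0.521 and no other below 0.568.

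KRT80, a type II keratin found in many epithelia, was at 144, 167 and 154 CPM in V, 142, 136 and 137 in WT, 129.3, 139.5 and 135.5 in SA, and 110.0, 108.5 and 124.7 in SD. All V libraries were above those of the AHR lines, and all SD libraries below those of WT and SA. The log2 fold change against V was −0.43 in SD (SE 0.07, adjusted p = 8.27e-05) and −0.20 in SA (SE 0.06, adjusted p = 0.0351), and −0.17 in WT with an adjusted p of 0.0852, or of 0.0484 without V replicate 1. The call in SA was lost in several fits, with a log2 fold change between −0.25 and −0.14 under all alternatives. It had an adjusted p of 0.0881, 0.0632 and 0.103 without SA replicate 1, 2 or 3, 0.206 and 0.0887 without V replicate 2 or 3, and 0.0523 with all 12 libraries in one fit.

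KRT81, a type II hair keratin close to KRT7 in level per kb, was not called in any comparison. It ranged from 1739 to 1935 CPM in V, 1690 to 1821 in WT, 1768 to 1884 in SA and 1496 to 1764 in SD. SD against V gave a log2 fold change of −0.15 (SE 0.06, adjusted p = 0.157), which passed the threshold without SD replicate 3 (−0.21, adjusted p = 0.0279). The ratio of KRT81 to KRT8 was 0.536 to 0.581 in V and 0.634 to 0.719 in the AHR lines. The other hair keratins tested were scarce, KRT86 at 1.61 to 4.83 CPM and KRT83 at 0.617 to 1.62 CPM over the 12 libraries, and their groups overlapped in every comparison.

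Among keratins of stratified epithelia, KRT4, a type II keratin of mucosal linings such as the oesophagus, had the largest fold change of the 19 genes at a low level. It was at 6.38, 6.05 and 4.73 CPM in V (45 to 62 counts), 2.29, 3.16 and 3.23 in WT (18 to 36 counts), 2.31, 1.62 and 3.00 in SA (19 to 34 counts), and 2.60, 1.93 and 1.43 in SD (16 to 26 counts). Each V library was above each library of the AHR lines. Log2 fold changes were −0.97 in WT (SE 0.26, adjusted p = 0.0225), −1.31 in SA (SE 0.28, adjusted p = 0.00302) and −1.53 in SD (SE 0.29, adjusted p = 0.00112). The call in WT was lost without V replicate 1 (adjusted p = 0.127), V replicate 2 (0.0743), WT replicate 1 (0.09997) or WT replicate 3 (0.0527), and with all 12 libraries in one fit (0.0550). The calls in SA and SD held under every alternative tried.

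KRT15, a type I keratin of basal and progenitor epithelial cells, was at 1.85, 2.87 and 1.37 CPM in V (13 to 27 counts) and at 5.34, 3.95 and 4.79 in WT (42 to 45 counts), and the groups did not overlap. Its log2 fold change in WT against V was 1.19 (SE 0.31, adjusted p = 0.0203). Leaving out V replicate 1, V replicate 3, WT replicate 1 or WT replicate 3 gave adjusted p values of 0.0919, 0.112, 0.0885 and 0.0742. In SA it was 4.91, 2.39 and 2.92 CPM and in SD 3.10, 3.22 and 3.03 CPM, with log2 fold changes of 0.73 and 0.62 that were not called (adjusted p = 0.248 and 0.364).

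KRT10, a type I keratin of differentiating epidermis, was at 47.4, 49.97 and 39.3 CPM in V, 45.7, 46.9 and 55.0 in WT, 59.9, 53.2 and 55.9 in SA, and 48.8, 55.3 and 60.04 in SD. SA alone lay wholly above V, with a log2 fold change of 0.30 (SE 0.08, adjusted p = 0.0241). Without SA replicate 1, SA replicate 3 or V replicate 3 its adjusted p was 0.0746, 0.0715 and 0.193. The values for WT and SD were 0.11 (adjusted p = 0.596) and 0.27 (adjusted p = 0.0902), the latter called without SD replicate 1 (0.0264) and with every counted gene in the test (0.0409).

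**Figure D2:**
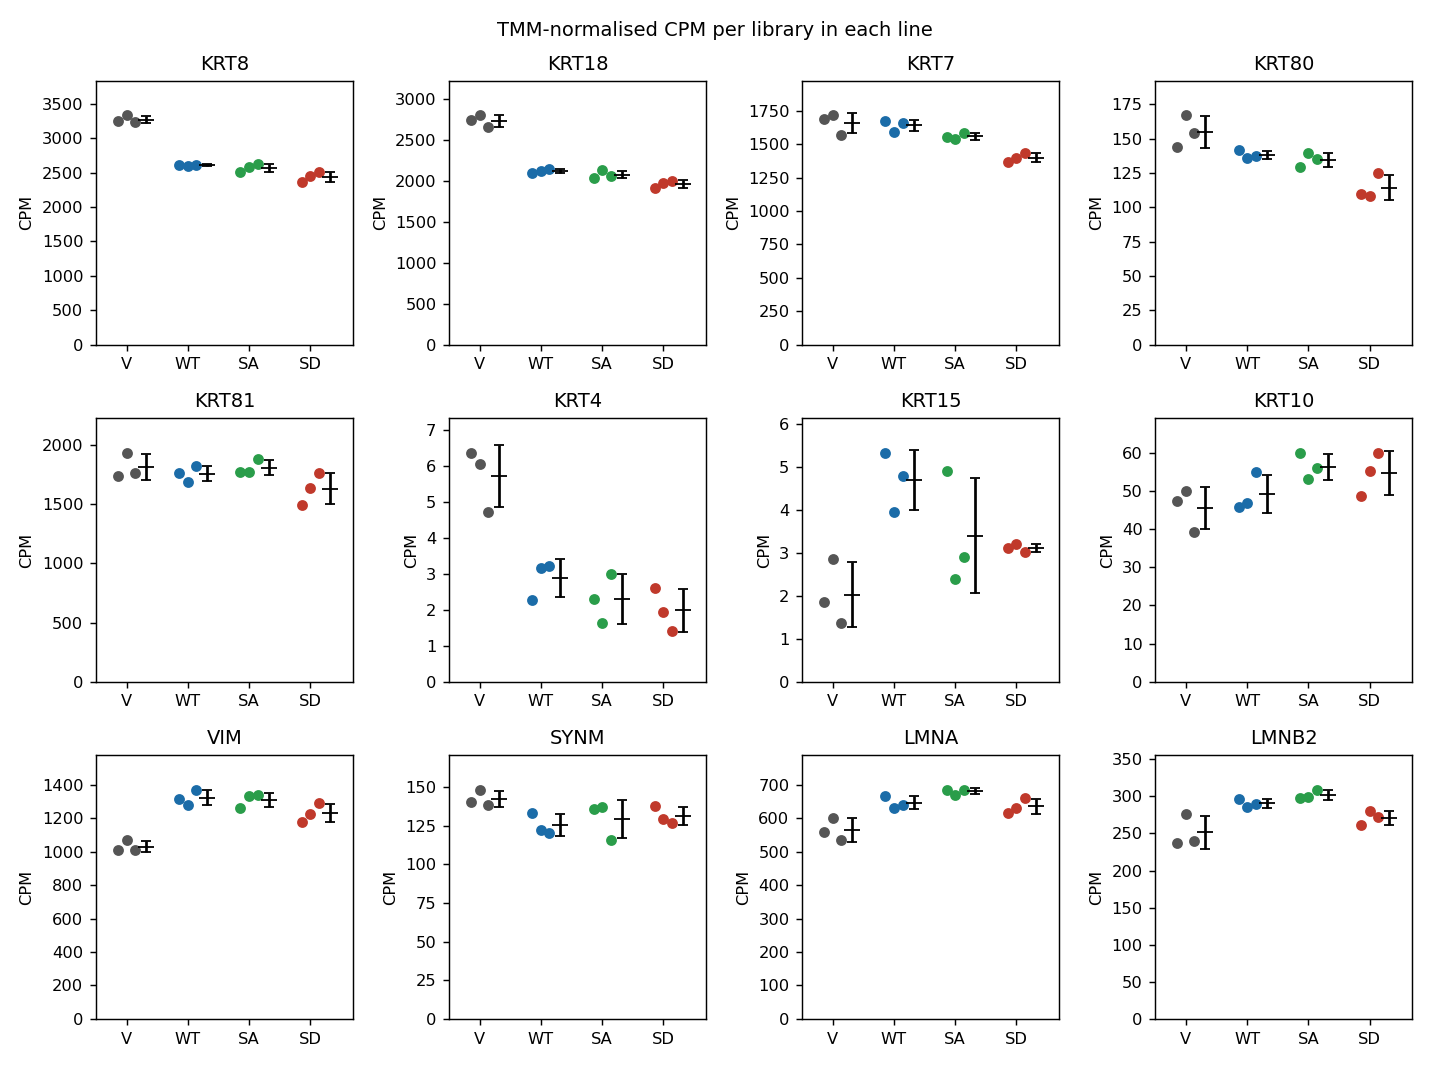
TMM-normalised CPM (vertical axes from 0) of 12 genes in the 3 libraries of each line, with the mean and SD drawn in black beside the points. KRT8, KRT18 and KRT4 are higher in the 3 V libraries than in any other, VIM is lower in V than in any other, and KRT7 and KRT80 are lowest in SD.

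Of the type III filaments, VIM was the only abundant one. VIM (chromosome 10, 17228241 to 17237593) was at 1009, 1069 and 1011 CPM in V, 1312, 1280 and 1370 in WT, 1259, 1332 and 1337 in SA, and 1178, 1223 and 1288 in SD. The V libraries were below all 9 others. The log2 fold change against V was 0.36 in WT (SE 0.04, adjusted p = 3.70e-07), 0.35 in SA (SE 0.05, adjusted p = 6.69e-06) and 0.26 in SD (SE 0.05, adjusted p = 0.00256). All 3 calls held under every alternative. GFAP, the filament of astrocytes, stayed between 4.63 and 7.46 CPM in the 12 libraries, with overlapping groups, and its exons overlap CCDC103 and FAM187A on the opposite strand.

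VIM, KRT8 and KRT18 each separated V from the other lines, and their ratio restates this. The ratio of VIM to summed KRT8 and KRT18 CPM was 0.169 to 0.174 in V, 0.272 to 0.288 in WT, 0.277 to 0.285 in SA and 0.276 to 0.286 in SD. The 3 AHR lines overlapped with each other on this measure. Keratins as a whole took 0.969% ± 0.0298 of the normalized counts in V, against 0.833% ± 0.0124 in WT, 0.822% ± 0.0146 in SA and 0.761% ± 0.0304 in SD. Type II over type I keratins, each summed per kb, came to 1.93 to 1.98 in V and 2.16 to 2.32 in the AHR lines.

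**Figure D3:**
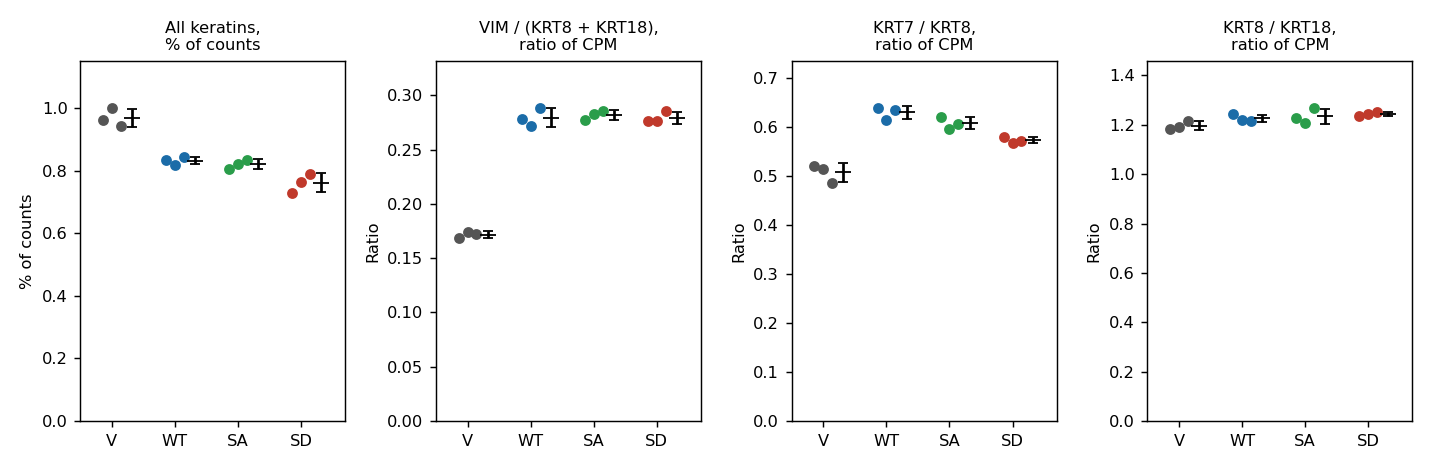
Share of all keratins in the normalized counts (%) and 3 ratios of CPM in each library of the 4 lines, with mean and SD in black (vertical axes from 0). The ratio of VIM to KRT8 plus KRT18 is 0.169 to 0.174 in V and 0.272 to 0.288 in the other lines, while KRT8 over KRT18 differs little.

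The epithelial marker genes differed among themselves. The summed level of the 6 epithelial markers was 336 to 376 CPM in V, against 258 to 276 in WT, 266 to 298 in SA and 265 to 286 in SD. E-cadherin (CDH1) fell against V by 0.60 on the log2 scale in WT, 0.60 in SA and 0.43 in SD, and ELF3, an epithelial transcription factor, by 0.33 in WT and 0.37 in SD, and these 2 genes made up most of the sum. The other tested markers were not called, and MUC1 and CLDN4 lay on the other side, with MUC1 at 7.36 ± 0.739 CPM in V, against 7.57 ± 0.478 for WT, 10.03 ± 2.10 for SA and 10.3 ± 1.28 for SD, and CLDN4 at 9.60 ± 0.656 in V, against 10.8 ± 2.11, 11.2 ± 0.357 and 10.5 ± 1.146. EPCAM and ESRP1 were at no more than 17 and 5 counts in a library. The fibroblast markers summed to 10.1 to 13.7 CPM in V and 5.97 to 10.2 in the AHR lines, and of these COL1A2 and DCN were at 0 counts everywhere. The neuron and glia markers summed to 29.1 to 32.3 CPM in V and 12.9 to 17.4 in the AHR lines, with GAP43 and S100B at 0 counts and RBFOX3 lower than in V in each line (−1.03 in WT, −1.05 in SA and −1.25 in SD). Blood cell markers summed to 21.7 to 28.4 CPM in V and 28.1 to 36.7 in the AHR lines, nearly all of it from CD68. Muscle markers summed to at most 1.38 CPM and endothelial markers to at most 0.316 CPM. The part of these genes in the keratin and vimentin results was not tested, and in bulk RNA fewer cells of a type and less RNA per cell cannot be told apart.

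Among neurofilament-type and related genes, SYNM in WT against V was the only call. SYNM, a large filament protein that links vimentin and desmin networks to adhesion sites, was at 141, 148 and 139 CPM in V, 133, 122 and 121 in WT, 136, 137 and 116 in SA, and 138, 129 and 127 in SD. V lay above all other libraries, but the change was called in WT only, with a log2 fold change of −0.19 (SE 0.05, adjusted p = 0.0383), against −0.14 in SA (adjusted p = 0.197) and −0.12 in SD (adjusted p = 0.313). The WT call was lost in DESeq2 (adjusted p = 0.0647), with all 12 libraries in one fit (0.119), and without V replicate 1 (0.103), V replicate 2 (0.158), WT replicate 2 (0.143) or WT replicate 3 (0.198). INA, an internexin of neurons, was at 60.7 to 76.4 CPM, with the 3 SD libraries below those of V (log2 fold change −0.16, adjusted p = 0.238). NES, the filament of progenitor cells, stayed between 4.67 and 7.29 CPM, and NEFL, the neurofilament light chain, between 1.02 and 3.43 CPM.

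The lamins were abundant in every line. LMNA was at 559, 602 and 534 CPM in V, 668, 631 and 640 in WT, 685, 670 and 685 in SA, and 617, 631 and 660 in SD, with V below all others. It rose against V in WT (log2 fold change 0.19, SE 0.04, adjusted p = 0.00746) and in SA (0.27, SE 0.05, adjusted p = 5.53e-04). In SD the log2 fold change was 0.17 (SE 0.05, adjusted p = 0.0662), and it was called there with DESeq2 (0.0455), with all 12 libraries in one fit (0.0353), with every counted gene in the test (0.0375) and without SD replicate 1 (0.0204). The call in WT was lost without V replicate 1 (0.0571), V replicate 3 (0.0731) or WT replicate 1 (0.0514).

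LMNB2 was at 237, 277 and 240 CPM in V, 297, 285 and 290 in WT, 297, 299 and 309 in SA, and 261, 280 and 273 in SD. It rose in WT (log2 fold change 0.21, SE 0.05, adjusted p = 0.0139) and in SA (0.26, SE 0.05, adjusted p = 0.00245), and the SD libraries overlapped those of V (0.11, adjusted p = 0.351). Without V replicate 1, V replicate 3, WT replicate 1 or WT replicate 3 the adjusted p in WT was 0.148, 0.0863, 0.0653 and 0.0528. LMNB1, which dividing cells keep high, was at 137 to 162 CPM in all lines and was not called (log2 fold change 0.10 in SA, adjusted p = 0.379, and 0.07 in SD, adjusted p = 0.597). The ratio of LMNA to summed LMNB1 and LMNB2 CPM was 1.41 to 1.45 in V and 1.45 to 1.58 in the AHR lines, with overlap between V and SA.

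**Figure D4:**
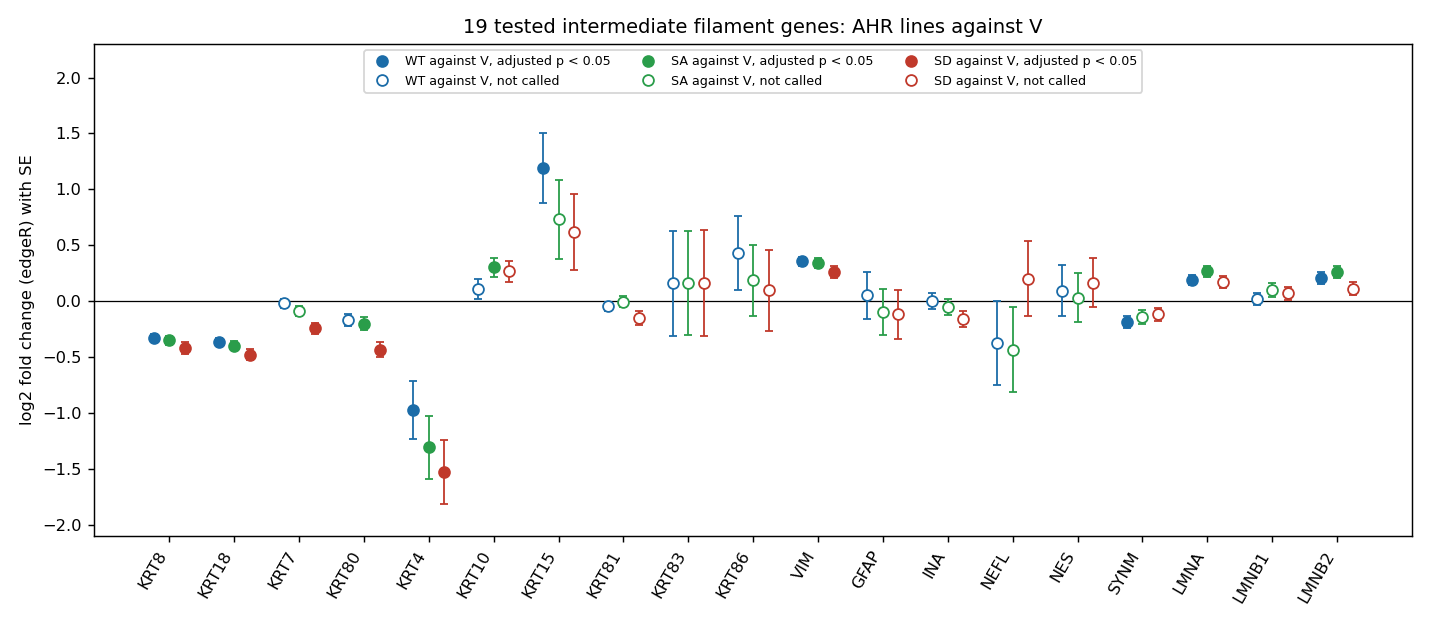
Log2 fold change of the 19 tested genes in WT (blue), SA (green) and SD (red) against V from edgeR, with the standard error. Filled points have an adjusted p under 0.05. KRT8, KRT18 and KRT4 are filled and below 0 in all 3 lines and VIM is filled and above 0 in all 3.

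The second question was whether the phosphorylation-site forms of AHR differed from each other. SD differed from WT in 2 of the 19 genes, KRT7 and KRT80, both lower in SD, where 0.708% of all genes tested were called and 0.196% were called lower. KRT7 fell by 0.23 on the log2 scale (SE 0.05, adjusted p = 0.0309, edgeR) and KRT80 by 0.27 (SE 0.06, adjusted p = 0.0381), and for both all SD libraries lay below all WT libraries. In all, 5 of the 19 had an unadjusted p under 0.05, as did 10.6% of all genes tested, and DESeq2 also called 2. Each call was lost when any of several libraries was left out. Under all alternatives the log2 fold change stayed between −0.25 and −0.21 for KRT7 and between −0.34 and −0.24 for KRT80. The adjusted p of KRT7 was 0.176 without SD replicate 2 and 0.181, 0.0810 and 0.188 without WT replicate 1, 2 or 3, and that of KRT80 was 0.115 and 0.231 without SD replicate 1 or 2 and 0.187, 0.0802 and 0.129 without WT replicate 1, 2 or 3. AHR itself had a log2 fold change of −0.35 between these lines (adjusted p = 0.00774, or 0.0586, 0.0644 and 0.0659 without SD replicate 2, WT replicate 2 or WT replicate 3), and the part of this difference in the keratin values was not tested.

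In SD against SA none of the 19 genes was called, where 0.22% of all genes tested were, and 4 had an unadjusted p under 0.05 (edgeR), as did 8.52% of all genes tested, with 0 called in DESeq2. KRT7 had a log2 fold change of −0.16 (SE 0.05, adjusted p = 0.381), KRT80 of −0.23 (SE 0.07, adjusted p = 0.211) and KRT81 of −0.15 (SE 0.06, adjusted p = 0.507), and for each of them all SD libraries lay below all SA libraries. In WT against SA no gene was called either, where 0.0803% of all genes tested were, 1 had an unadjusted p under 0.05, as did 7.31% of all genes tested, and DESeq2 called 0.

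The log2 fold change was negative for 9 of the 10 tested keratins in SD against WT, with KRT10 the exception, and for 10 of 10 in SD against SA, while 49.8% and 50.2% of all genes tested were positive. With a library left out the number fell as low as 7 in each, without WT replicate 1 and without SD replicate 1, and KRT83 was at 0.00 in both. These comparisons share the SD libraries. The direction was not particular to keratins, since 10 and 8 of 10 proliferation genes (listed below) were also negative in SD against WT and SD against SA. Of 13 tested linkers and desmosome genes 7 and 9 were negative, and of 15 lamina and nuclear envelope partners 5 and 4. KRT8 was at −0.09 (adjusted p = 0.539) and KRT18 at −0.11 (adjusted p = 0.420) against WT, and at −0.07 (adjusted p = 0.748) and −0.08 (adjusted p = 0.697) against SA. VIM was at −0.10 (adjusted p = 0.508) and −0.09 (adjusted p = 0.682), LMNA at −0.10 (adjusted p = 0.643) and LMNB2 at −0.15 (adjusted p = 0.409) in SD against SA. INA was at −0.16 in SD against WT (adjusted p = 0.420) and NEFL at 0.63 in SD against SA (adjusted p = 0.657). Over the 19 genes the median was −0.10 against WT and −0.09 against SA, beside 0.00 over all genes tested.

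**Figure D5:**
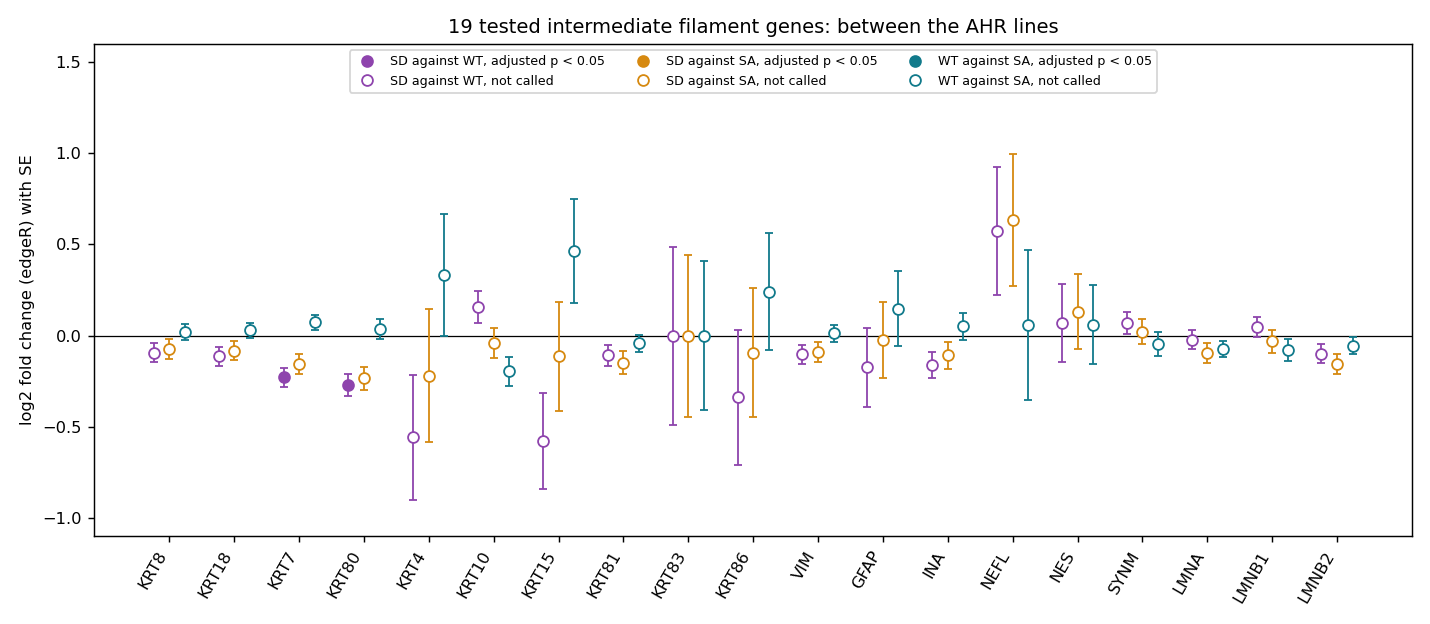
Log2 fold change of the 19 tested genes between the AHR lines (SD against WT in purple, SD against SA in orange, WT against SA in teal) from edgeR, with the standard error. KRT7 and KRT80 in SD against WT are the filled points, with an adjusted p under 0.05.

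Genes that anchor or surround the filaments were read as lists. Of 18 linkers and desmosome genes, 13 were tested, and 2, 3 and 3 were called in WT, SA and SD against V, all of them lower, where 2.93%, 3.29% and 2.49% of all genes tested were called lower. JUP (plakoglobin), a protein of desmosomes and adherens junctions, averaged 158 ± 3.44 CPM in V against 96.0 ± 8.78 in WT, 106 ± 8.65 in SA and 101 ± 8.81 in SD. Its log2 fold change was −0.72 in WT (adjusted p = 1.17e-09), −0.58 in SA (adjusted p = 1.34e-07) and −0.64 in SD (adjusted p = 1.05e-07). PKP2 (plakophilin 2), a desmosomal plaque protein, fell from 15.1 ± 0.527 CPM in V to 10.3 ± 0.448 in WT, 10.8 ± 0.469 in SA and 7.50 ± 1.61 in SD, by 0.55, 0.48 and 1.00 on the log2 scale (adjusted p = 0.0143, 0.0291 and 2.17e-04). The call in WT was lost without V replicate 1 (0.0701) or WT replicate 3 (0.0691). In SA it was lost without SA replicate 2 or 3 or any 1 of the V libraries (0.0591 to 0.112) and in DESeq2 (0.0597), while in SD it held throughout. DSP (desmoplakin), which links keratins to desmosomes, was lower in SD (−0.23, adjusted p = 0.0180) and MACF1 in SA (−0.18, adjusted p = 0.0251), and each call was lost without replicate 2 or 3 of its own line or replicate 1 or 3 of V (0.0638 to 0.121 for DSP and 0.0798 to 0.165 for MACF1). PLEC (plectin), the most abundant of the list at 2023 ± 106 CPM in V, was not called. The list's median log2 fold change was −0.05, −0.05 and −0.11 in WT, SA and SD, beside 0.00 over all genes tested.

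All 15 lamina and nuclear envelope partners were tested, and SYNE2, a nesprin, in SA against V was the only call among them (−0.35, adjusted p = 8.94e-04). Over all genes tested, 5.24%, 7.17% and 5.41% were called in WT, SA and SD against V. Of 6 other filament proteins, 3 were tested (BFSP1, SYNC and IFFO2) and none was called in any comparison, with no unadjusted p under 0.05. Of the 10 proliferation genes set beside the B-type lamins, RRM2 was called higher in WT (0.22, adjusted p = 0.0176), where 2.31% of all genes tested were. MKI67 was called lower in SA (−0.18, adjusted p = 0.0136), where 3.29% of all genes tested were, and none of the 10 was called in SD. RRM2 was not called without V replicate 1 or 3 or WT replicate 1 or 3 (adjusted p = 0.0507 to 0.113), nor MKI67 without SA replicate 2 or 3 or V replicate 1 (0.0826 to 0.0958). In SD against WT, SD against SA and WT against SA no gene of these 4 lists was called, where 0.708%, 0.22% and 0.0803% of all genes tested were.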

How the data were processed

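Poly(A) RNA of the 12 libraries was sequenced by the authors, who used Trimmomatic (v0.39) for trimming and RSEM for mapping to GRCh38 transcripts, and deposited expected counts per gene, neither normalized nor filtered. Where several genes match a read, RSEM splits it among them. A second deposited table holds only the authors' own fold changes, p-values and q-values for a selected list of genes and was not used. Columns that name SA and SD lines as A and D were matched to those lines. Coordinates were compared with GENCODE v44, in which all 67 genes were found, 56 with the same start and end.

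Expected counts were rounded, and edgeR 4.0.16 (R 4.3.3) was run for every pair of lines with only those 6 libraries (filterByExpr with minimum count 10 and minimum total 15, TMM, quasi-likelihood test, two-sided, Benjamini-Hochberg over all genes tested, threshold 0.05). Standard errors were derived from the F statistics. The script was tested on simulated data. Levels are CPM, or CPM per kb of the Ensembl canonical transcript. Promoters are RefSeq's, with a window for 41 of the 67 genes. Alternatives were every gene with at least 1 count, DESeq2 size factors, DESeq2 1.42.0, a joint fit of all 12 libraries, a block for the replicate number, and each library left out in turn. Libraries of a line were checked for copies, and none was found. Genes given by library were those called in any comparison. The tested simple-epithelial keratins with KRT81, VIM, NES, SYNM and the lamins were given whatever their result, with KRT81, NES and LMNB1 as ranges. The genes, lists and rule were chosen with earlier results of these data known. Figures were drawn with matplotlib 3.10.9.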

Additional observations from a re-analysis of the deposited data

How the results depend on the processing

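Of the 24 calls among the 114 values (19 genes in 6 comparisons), 14 held under all alternatives and 10 were lost under at least 1, which is named beside the value except for the block below, and none of the 24 changed sign. Of the 90 values that were not called, 35 changed sign under at least 1 alternative. With a library left out, the number called among the 19 genes ranged from 0 to 2 in SD against WT, 4 to 7 in WT against V, 6 to 8 in SA against V and 5 to 8 in SD against V, and stayed 0 in the other 2 comparisons. Without V replicate 1, WT replicate 1 or WT replicate 3 it was 4 in WT against V, and without V replicate 3 it was 5. Over all genes tested, these fits called 45 to 145 in SD against WT and 434 to 720 in WT against V, beside 105 and 774 with every library. They called 621 to 1195 in SA against V and 502 to 856 in SD against V, beside 1069 and 806. Correlations of same-numbered deviations ran from −0.04 to 0.11, and from 0.02 to 0.05 in SD against SA. The replicate numbers were therefore not taken to pair the libraries. With the number as a replicate block, 3 genes (KRT7, KRT80 and KRT81) were called in SD against SA in place of 0, and 4 in WT against V in place of 8, where KRT15 (adjusted p = 0.0610), KRT4 (0.0614), LMNB2 (0.0580) and SYNM (0.0945) were no longer called, nor was RRM2 (0.0557). Over all genes tested, the block gave 165 calls in SD against SA in place of 33, and 507 in WT against V in place of 774. In SD against WT it gave 245 in place of 105, and in SA against V 1345 in place of 1069. In WT against SA it gave 25 in place of 12, and in SD against V 664 in place of 806. It did not change the number called among the 19 genes in the other 4 comparisons. The cause of these changes was not tested, and the fits that leave a library out also have fewer samples. The 7 tested genes between 0.617 and 7.46 CPM had 6 to 74 counts a library and standard errors of 0.20 to 0.49 on the log2 scale, so that only large differences could be called for them at this depth.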
